A study of Arabidopsis thaliana with 4 samples.

Results

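HAM1, HAM2 and HAM3 are GRAS-family transcription factor genes of Arabidopsis thaliana, and MIR171b is the gene of a microRNA that targets them. The rows of these 4 genes were taken from the deposited count tables by their locus identifiers (AT2G45160, AT3G60630, AT4G00150 and AT1G11735), out of 27880 rows in each table. All 4 had a row of their own. Levels were compared between embryos of the serrate-1 mutant (se-1) and of wild type, both in the Col (Columbia) ecotype and both at the globular stage, when an embryo has 32 to 64 cells. The plants of both genotypes were kept at 4 °C in the dark for at least 4 days and then raised in soil at 22 °C with 16 h of light. Each genotype had 2 libraries, numbered as replicates, and the library totals lay between 18580516 and 20882004 counts. The sources used here do not say whether the replicates came from separate plants or how many embryos each held, so the p-values measure the spread between these libraries, which may be technical.

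HAIRY MERISTEM (HAM) proteins, also called LOST MERISTEMS, keep shoot stem cells undifferentiated and bind WUSCHEL-type homeodomain proteins as partners. MicroRNAs of the miR171 family pair with a site in the HAM1, HAM2 and HAM3 messages and direct their cleavage, whereas HAM4 is known to escape this control. In the shoot meristem the epidermal homeodomain factor ATML1 promotes MIR171 expression. SERRATE (SE) helps the nuclease DCL1 to cut microRNAs out of their primary transcripts, and se-1 is an allele with partial loss of function. The assay counted amplified polyadenylated RNA, so it reports the primary transcripts and the target messages but not the mature microRNAs.

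The mature sequences show how the family reads the HAM messages. They come from the RefSeq annotation of TAIR10.1, 5′ to 3′, with the seed (bases 2 to 8) in capitals.
miR171a-3p: uGAUUGAGccgcgccaauauc
miR170-3p: uGAUUGAGccgugucaauauc
miR171b-3p: uUGAGCCGugccaauaucacg
miR171c-3p: uUGAGCCGugccaauaucacg
miR171a and miR170 share 1 seed and miR171b and miR171c share another. miR171b-3p and miR171c-3p are the same molecule, so the products of the MIR171b and MIR171c genes cannot be told apart once they are cut out.

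The target site is shown for the 3 HAM messages, because it is the feature that sets them apart from the other GRAS genes. Each line gives 24 bases of the message, with the 21 bases that pair with miR171a-3p in capitals.
HAM1: aggGAUAUUGGCGCGGCUCAAUCA
HAM2: aggGAUAUUGGCGCGGCUCAAUCA
HAM3: gggGAUAUUGGCGCGGCUCAAUCA
The stretches lie on the minus strand of TAIR10.1 at chr2:18619128-18619151 for HAM1, chr3:22411544-22411567 for HAM2 and chr4:58411-58434 for HAM3. Each gene is annotated with 1 exon, and each site is inside the coding sequence, starting at coding base 885 of 1923 in HAM1, 804 of 1872 in HAM2 and 675 of 1677 in HAM3. All 21 bases of miR171a-3p can pair there. With miR171b-3p, shifted by 3 bases along the same stretch, 18 bases pair and 1 more can form a G:U pair.

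Among 27440 coding transcripts, scanned without gaps, HAM1, HAM2 and HAM3 were the 3 that left at most 3 bases of miR171a-3p, miR171b-3p or miR170-3p without a Watson-Crick partner. The best window of HAM4 is shown for contrast, with the bases that form no Watson-Crick pair with miR171a-3p in lower case.
HAM4: GgUuUUauCaCGGCUuAAUCA
It lies at chr4:17306488-17306508 on the plus strand, in coding sequence. Of its 21 bases 15 pair and 2 more can form a G:U pair. In the other 29 GRAS genes the best window paired at most 15 bases of miR171a-3p as well. The pairing counts describe letters and do not measure cleavage.

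RefSeq annotates MIR171b as its hairpin alone, 117 bases on the minus strand at chr1:3961348-3961464. The tables hold no coordinates, so the stretch that the authors' row counts may differ. The annotated hairpin is printed with the mature miR171b-3p in capitals, to show where the microRNA lies in it.
MIR171b: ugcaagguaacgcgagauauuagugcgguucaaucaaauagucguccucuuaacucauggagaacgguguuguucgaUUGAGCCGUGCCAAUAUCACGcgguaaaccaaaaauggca
In its predicted fold of least free energy (-45.2 kcal/mol) 78 of the 117 bases were paired, and the mature strand takes bases 78 to 98. In that annotation no other gene overlaps this hairpin or any of the 3 HAM genes. The longest identical run between 2 HAM transcripts was 38 bases (HAM1 and HAM2), and between the MIR171b and MIR171c hairpins it was 25 bases. How the authors treated reads that map to several places is not given in the sources used here.

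SE itself, the mutated gene, was at 69.4 and 71.1 CPM in se-1 and at 96.7 and 98.6 CPM in wild type. It was 1.39-fold lower in se-1 (adjusted p = 2.9e-05, edgeR), but not past the test once the length trend described further on was removed (adjusted p = 0.0562). With GC content removed as well it was again called lower (log2 fold change -0.36, adjusted p = 6.1e-04). The se-1 allele alters the coding sequence and still gives a transcript, so this level does not check the label. The 9 embryo markers, among them WOX2, WOX8 and ATML1, summed to 1087 to 1092 CPM in se-1 and 1295 to 1308 CPM in wild type, although 6 of them were higher and 3 lower in se-1. The lower ones included the abundant ATML1 (309 against 547 CPM) and MP (158 against 269 CPM). Neither passed once the length trend was removed (log2 fold change -0.13, adjusted p = 0.191, and -0.15, adjusted p = 0.109, edgeR). In that fit 5 of the 9 embryo markers were called higher and 2 lower, where 32.6% and 34.0% of all genes were. Markers of the tissues around the embryo had counts in both genotypes. The 9 endosperm markers summed to 86.3 to 87.4 CPM in se-1 against 106 to 114 CPM, with 2 of 7 tested higher and 5 lower, and IKU2 at 0 in se-1. This sum joins opposite changes, with PHE1 at 27.2 against 3.65 CPM and FIS2 at 3.58 against 21.2 CPM. The 8 seed coat markers summed to 198 to 201 CPM against 126 to 140 CPM, with 4 higher and 2 lower. Beside these counts, 36.2% of all 18714 genes tested were called higher and 36.0% lower. The part of the tissues around the embryo in the values of the HAM genes and MIR171b was not tested.

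MIR171b was the member that differed most. It had 85 and 77 counts in the se-1 libraries and 4 and 2 in wild type, which is 4.55 and 3.69 CPM (counts scaled to equal library size after TMM normalisation) against 0.211 and 0.105 CPM. Both se-1 libraries stood far above both wild-type libraries. The fitted rise was 25.1-fold (log2 fold change 4.65, SE 0.37, adjusted p = 2.2e-09, edgeR), and the plain ratio of counts was 26.0 with an exact 95% interval of 11.7 to 71.9 that covers counting error only. The width comes from the 6 wild-type counts. For background, 72.3% of the 18714 genes tested passed this test. Of all genes tested 36.2% were called higher and 36.0% lower in se-1. The groups did not overlap in 85.5% of the genes tested, as in all 4 members. Passing the test is thus ordinary in this comparison, while a fitted log2 fold change as large as that of MIR171b was reached by 0.39% of the genes, MIR171b included. MIR171b passed the filter on low counts through its se-1 libraries alone. A gene with so few wild-type counts could be tested only if it was higher in se-1, so the direction of its call was tied to that filter. With no filter its log2 fold change was 4.66 (adjusted p = 1.1e-04, edgeR).

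The 3 target messages had lower means in se-1. HAM2 fell, HAM1 was lower by a small amount that several settings did not keep, and HAM3 was close to undetected in both genotypes.

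**Figure D1:**
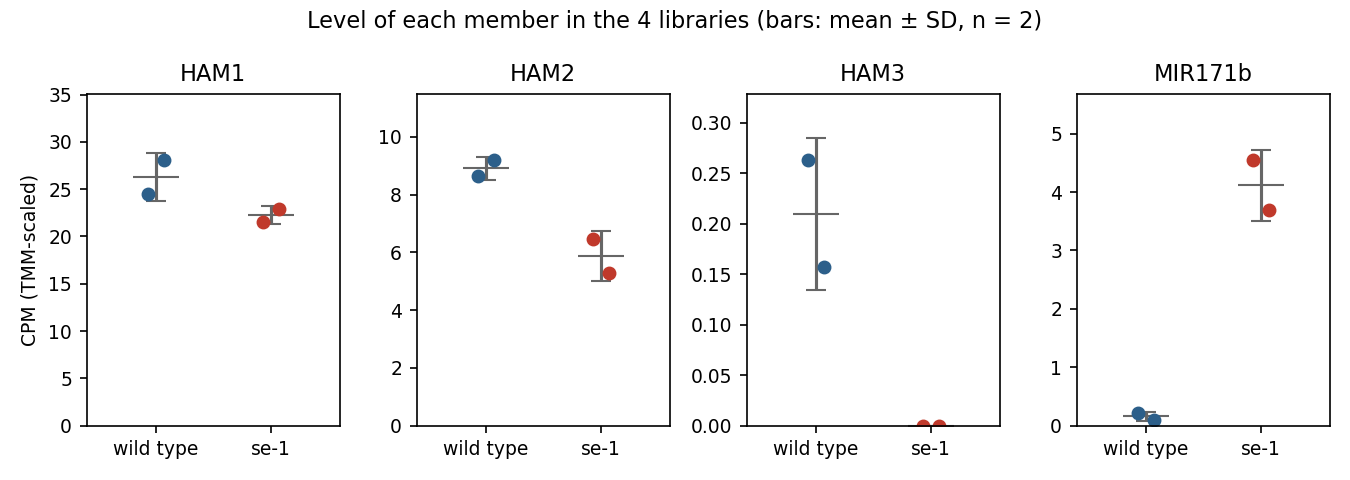
Level of HAM1, HAM2, HAM3 and MIR171b in CPM (vertical axes, each from 0) in the wild-type and se-1 libraries; points are libraries and bars the mean ± SD (n = 2). MIR171b lies at 3.69 and 4.55 CPM in se-1 against 0.105 and 0.211 CPM in wild type, and each HAM gene has both se-1 points under both wild-type points.

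HAM1, also known as SCL27 and LOM1, was the most abundant of the 3 messages. It stood at 21.6 and 22.9 CPM in se-1 and at 24.5 and 28.1 CPM in wild type. The groups did not overlap, but the wild-type libraries differed by more from each other than the nearest se-1 and wild-type libraries did. The fit placed se-1 below wild type by 1.18-fold (log2 value -0.24, SE 0.098, adjusted p = 0.0342, edgeR). The call was lost with DESeq2 (adjusted p = 0.126, in a fit that called 61.1% of the genes), without se-1 replicate 1, without se-1 replicate 2, without wild type replicate 2 and with no filter on low counts.

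HAM2, also known as SCL22 and LOM2, fell in se-1. It had 6.48 and 5.27 CPM in se-1 and 8.64 and 9.20 CPM in wild type. Both se-1 values were lower than both wild-type values by more than either pair was spread. The fall was 1.52-fold (log2 fold change -0.61, SE 0.14, adjusted p = 8.0e-04, edgeR), it passed in all 12 alternatives, and its log2 fold change ranged from -0.75 without se-1 replicate 1 to -0.46 without se-1 replicate 2 when single libraries were left out. A log2 fold change this low or lower was found in 21.6% of the genes tested.

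HAM3, also known as SCL6 and LOM3, had 5 and 3 counts in the wild-type libraries and none in either se-1 library. In CPM this is 0.263 and 0.157 against 0, and the absence of counts allows up to 0.0759 CPM in se-1 (3 counts over both libraries). The ratio of the wild-type level to that limit was 2.77, so that HAM3 was at least 2.77-fold lower in se-1 if the 8 wild-type reads are taken at face value. With their counting error included, the exact 95% interval of the count ratio started at 1.77. The 2.77-fold bound drops to 1.46 without se-1 replicate 1 and to 1.31 without se-1 replicate 2, where the limit rests on 1 library, and without wild type replicate 1 only 3 reads remain. It did not pass the filter on low counts and was not tested with the others. Without the filter its adjusted p was 0.0321 (edgeR), in a fit that called 27.2% of 25015 genes lower, and the size of that fitted change is not given because it rests on the added prior count. With 8 reads in all, HAM3 can say little at this depth.

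Per kilobase of transcript the order of the messages was the same in both genotypes. In wild type HAM1 was at 10.2 ± 0.98 (SD, n = 2), HAM2 at 3.68 ± 0.165 and HAM3 at 0.0892 ± 0.032 CPM per kb. In se-1 HAM1 was at 8.59 ± 0.364 and HAM2 at 2.42 ± 0.352 CPM per kb. Neighbours in this order were separated by more than their spread. HAM1 exceeded 53.0% of the 18495 tested coding genes in wild type and 48.0% in se-1, a middling level, whereas HAM2 exceeded 30.1% and 22.9%. These ranks hold for counts per kilobase of the full transcript. Whether counts grow with transcript length in these libraries was not tested. In a bulk sample fewer cells with a message and less message per cell cannot be told apart.

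The summed level of the 3 HAM messages was 11.0 and 11.0 CPM per kb in the se-1 libraries and 13.1 and 14.7 CPM per kb in wild type, a ratio of 0.791. HAM1 made up 75.7% and 80.3% of that sum in se-1 and 72.0% and 73.7% in wild type. HAM2 made up 24.3% and 19.7% in se-1 against 27.1% and 25.8% in wild type. The HAM1 share was thus higher by 5.12 percentage points in se-1 and the HAM2 share differed by -4.47 points, with no overlap of the groups. Without se-1 replicate 2 these differences were 2.84 and -2.19 points. An exact two-sided permutation test gave p = 0.333, the smallest that 2 libraries against 2 allow, so the test cannot show whether HAM1 and HAM2 responded differently.

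Transcript length bears on these values, because long messages tended to be lower and shorter ones, down to 300 nt, higher in se-1 across the transcriptome. HAM1 has 2590 nt and HAM2 2424 nt. Among the 1756 tested coding genes between 2300 and 2700 nt the median was -0.23 on the log2 scale, with quartiles of -0.59 and 0.19, and 47.5% of them were called lower. HAM1 lay at the middle of this class, with 49.5% of its genes lower than HAM1. HAM2 lay near its lower quartile, with 23.6% lower.

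After the length trend was removed, HAM1 was at 0.03 on the log2 scale (SE 0.098, adjusted p = 0.823, edgeR), with the sign turned. HAM2 was at -0.43 (SE 0.14, adjusted p = 0.0119) and still called lower, in a fit that called 66.7% of 18529 genes in either direction and 34.0% as lower. With GC content removed as well, HAM1 was at -0.10 (adjusted p = 0.387) and HAM2 at -0.59 (adjusted p = 0.0012). The origin of the length trend was not tested.

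**Figure D2:**
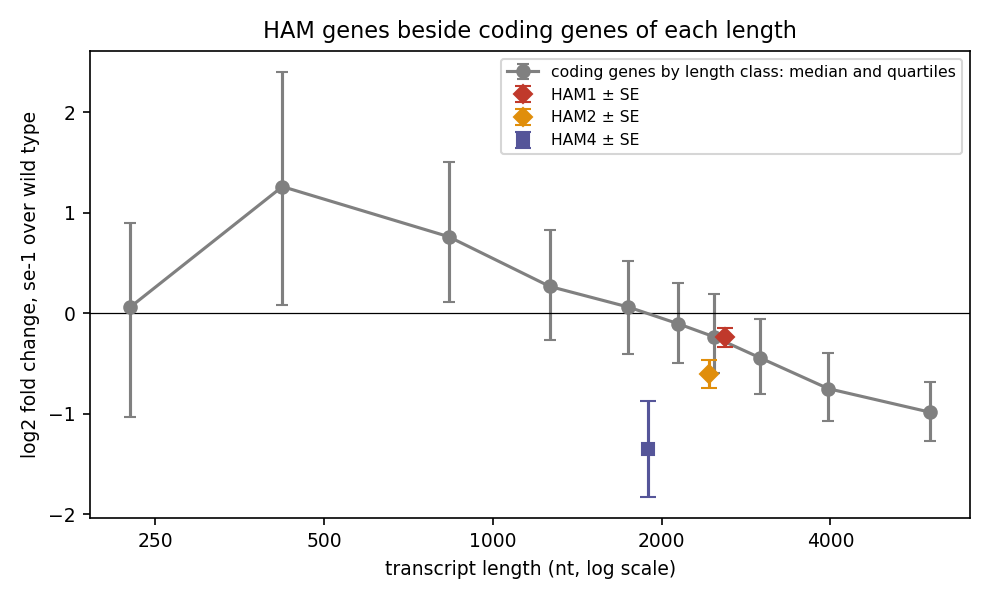
Log2 fold change of se-1 over wild type (vertical axis) against transcript length in nt (horizontal log axis); grey points are medians of tested coding genes by length class with quartiles, and coloured points are HAM1, HAM2 and HAM4 ± SE. HAM1 at -0.24 lies on the line of medians, HAM2 at -0.61 near the lower quartile of its class and HAM4 at -1.35 under the quartiles around it.

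HAM4 (AT4G36710), the family member without the full site, was also lower in se-1. It had 6 and 4 counts in se-1 and 14 and 11 in wild type, or 0.321 and 0.192 against 0.737 and 0.575 CPM. The log2 fold change was -1.35 (SE 0.47, adjusted p = 0.0158, edgeR), and the wild-type over se-1 ratio of counts was 2.59 with an exact 95% interval of 1.20 to 6.05. It did not pass with DESeq2 (adjusted p = 0.158), without se-1 replicate 2 (0.151) or without wild type replicate 1 (0.140). The HAM genes with a complete miR171a site and the one without it thus all had lower means in se-1, HAM3 on 8 reads. With the length trend removed HAM4 was at -1.40 on the log2 scale (adjusted p = 0.0143, edgeR) and HAM2 at -0.43, while HAM1 was at 0.03. A difference between genes with and without the complete site was not tested.

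Among the 30 GRAS genes outside HAM1 to HAM3, 27 were tested, of which 9 rose, 9 fell and 9 did not pass, near the shares over all genes of 36.2% higher and 36.0% lower. Their median log2 fold change was -0.06, beside 0.00 over all 18714 genes tested. Removal of the length trend left 10 rises and 6 falls and put the median at 0.09, where 32.6% and 34.0% of all genes were called higher and lower. The falls with the smallest adjusted p were those of SCL8 (1.88-fold, from 177 to 94.2 CPM, adjusted p = 7.0e-09), AT1G63100 (1.86-fold, adjusted p = 1.6e-08), AT3G50650 (1.66-fold, adjusted p = 2.0e-06) and AT5G66770 (1.38-fold, adjusted p = 6.7e-05). After the length trend was removed AT5G66770 no longer passed (adjusted p = 0.0501).

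The rises with the smallest adjusted p were those of AT3G46600 (2.38-fold, adjusted p = 2.0e-06), GAI (1.46-fold, adjusted p = 4.3e-05), PAT1 (1.40-fold, adjusted p = 1.7e-04) and AT4G08250 (2.40-fold, adjusted p = 4.4e-04). GAI is a DELLA repressor of gibberellin responses, and PAT1 acts in phytochrome A signalling.

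In size of change HAM1 was closest to SHR, a mobile regulator of root ground tissue (log2 fold change -0.23), out of the 27 GRAS genes tested beside it. Next came RGL2 (-0.21) and SCL3 (-0.17), which did not pass. The call for SHR was lost in 6 of the 12 alternatives. Among these were DESeq2 (adjusted p = 0.0626) and, with edgeR, no filter (0.125) and removal of the length trend (0.0865). Without se-1 replicate 2 the log2 fold change of SHR was -0.08. HAM2 was closest to SCL1 (-0.65), AT3G50650 (-0.73) and AT5G66770 (-0.47). Likeness here is the absolute difference in log2 fold change in the 1 comparison available, and it carries no statement on shared control.

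**Figure D3:**
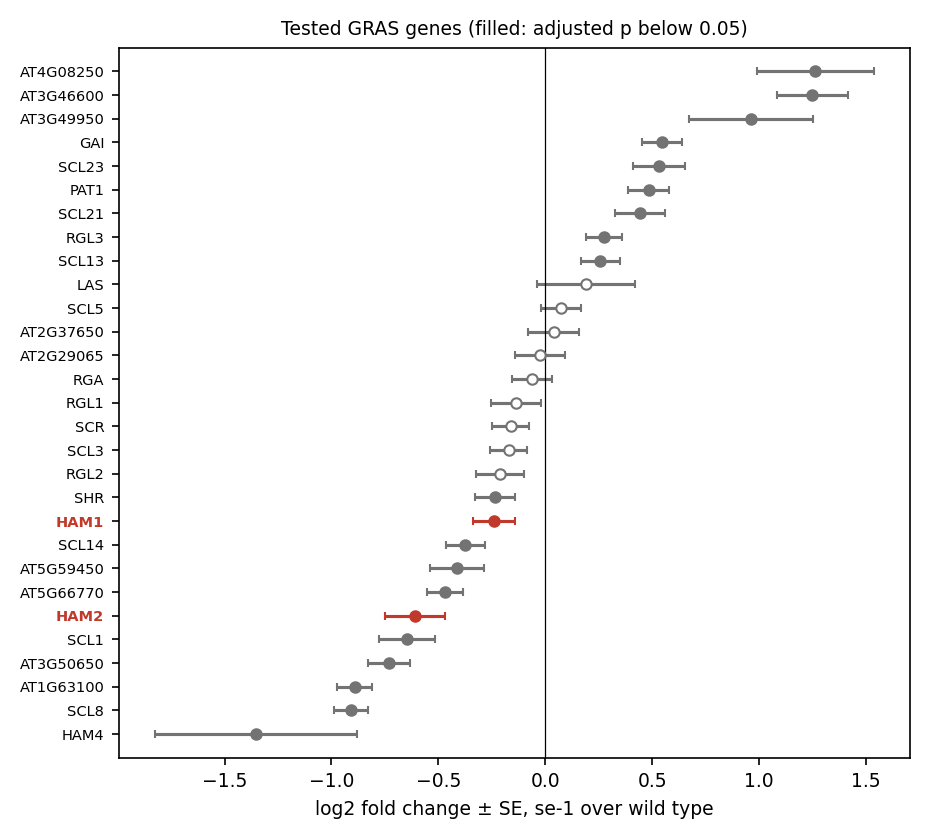
Log2 fold change of se-1 over wild type ± SE (horizontal axis) for each tested GRAS gene (rows), with HAM1 and HAM2 in red and filled points for an adjusted p below 0.05. The genes spread on both sides of 0, from HAM4 at -1.35 to AT4G08250 at 1.26.

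The other genes of the miR171 family could be read in part. MIR171c (AT1G62035), whose mature product equals that of MIR171b, had 10 and 23 counts in se-1 and 3 and 1 in wild type. It rose (log2 fold change 2.91, SE 0.61, adjusted p = 3.1e-04, edgeR), with a ratio of counts of 7.95 and an exact 95% interval of 2.83 to 30.9. Without wild type replicate 1 the log2 fold change was 3.83, and without wild type replicate 2 it was 2.35. When se-1 replicate 2 was left out, MIR171c did not pass the filter on low counts. The interval of its count ratio overlaps the interval of MIR171b, and a difference between the 2 rises was not tested. In level MIR171c was at 0.819 CPM in se-1, beside 4.12 CPM for MIR171b. MIR171a has no row of its own. It is joined with IQD20 in a row that had 4446 and 5526 counts in se-1 and 367 and 393 in wild type (log2 fold change 3.66, SE 0.096), and the reads of these neighbours cannot be told apart. MIR170 is joined with AT5G66050 in a row that had 316 and 362 counts against 316 and 307 and did not pass (log2 fold change 0.07, adjusted p = 0.555).

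MIR171b had the highest fitted log2 fold change of the 33 MIR genes tested, but MIR173 stood above it with the length trend removed (5.06 against 4.96) and with GC content removed as well (5.16 against 4.85). Of the 33 genes 29 rose and 2 fell, with a median of 2.55. Over all 18714 genes tested 36.2% were called higher and 36.0% lower, with a median of 0.00. The number lower was 5 without se-1 replicate 1, 5 without se-1 replicate 2 and 6 with no filter, and 162 of the 224 MIR genes in the tables had no count in any library. A MIR gene with almost no wild-type counts could be tested only if it was higher in se-1, as was the case for MIR171b. Closest to it were MIR173 (4.57, SE 0.56), MIR319a (4.40, SE 0.77) and MIR156b (4.34, SE 0.66), which differ from MIR171b by less than their own SE. In absolute terms MIR171b stayed at 4.12 ± 0.608 CPM (SD, n = 2) in se-1, a low count over a short stretch.

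The 117 nt annotated for MIR171b lie below the lengths at which the trend of coding genes can be read well. With that trend removed at its short end MIR171b was at 4.96 on the log2 scale (adjusted p = 7.1e-10, edgeR). The median of the 52 coding genes no longer than 300 nt was 0.06, and that of the 218 between 300 and 500 nt, the class with the highest median, was 1.26. MIR171b lies above the upper quartile of both classes, 0.89 and 2.40.

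**Figure D4:**
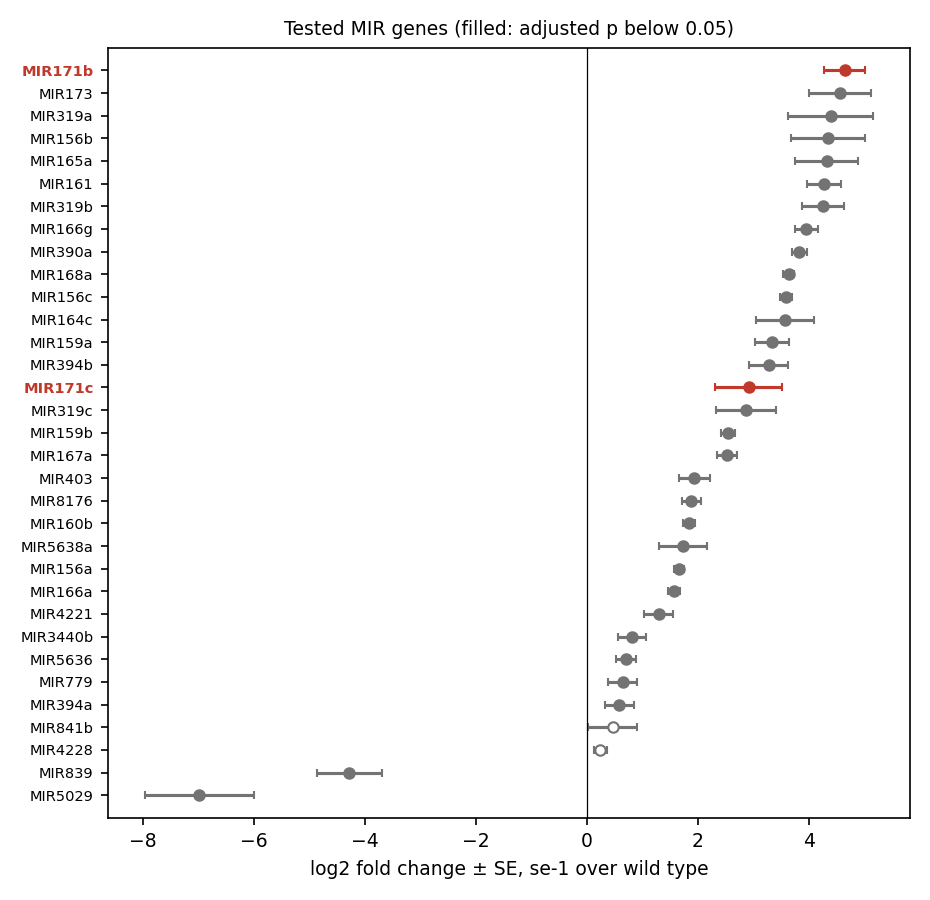
Log2 fold change of se-1 over wild type ± SE (horizontal axis) for the 33 tested MIR genes (rows), with MIR171b and MIR171c in red and filled points for an adjusted p below 0.05. MIR171b is at 4.65 and MIR171c at 2.91, and the error bars of the rows nearest to MIR171b overlap its own.

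Of 13 genes listed as HAM partners or as meristem or epidermal regulators 9 were tested, of which 4 rose, 3 fell and 2 did not pass. These 7 calls are near the share called over all genes, 72.3%. The homeobox gene WUS, a stem cell regulator whose protein binds HAM proteins, stood at 1.87 and 2.16 CPM in se-1 and 1.16 and 1.31 CPM in wild type (log2 fold change 0.71, SE 0.26, adjusted p = 0.0206, edgeR). The call for WUS was lost with DESeq2 (adjusted p = 0.160), without se-1 replicate 2 (0.125) and without wild type replicate 1 (0.109). Its relatives WOX2 and WOX5 rose by 1.35 and 0.95 on the log2 scale, and STM, a KNOX gene of the shoot meristem, rose by 0.66. CLV1, the receptor of the CLV3 peptide, and the epidermal genes ATML1 and PDF2 had log2 fold changes of -0.71, -0.82 and -0.72.

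Most of these calls depended on the length trend. After its removal 3 of the 9 were higher and none lower, where 32.6% and 34.0% of all genes were called higher and lower. The 3 were WOX2 (1.09), STM (0.62) and CLV2 (0.40). WUS (0.41, adjusted p = 0.172, edgeR), WOX5 (0.41, adjusted p = 0.0802), CLV1, ATML1 and PDF2 did not pass. CLV2, a receptor-like protein that acts beside CLV1, had been at 0.14 and its partner gene CRN at -0.04 before, both without passing, and CRN turned to 0.11. With GC content removed as well, PDF2 was again called lower (-0.21, adjusted p = 0.0274, edgeR). The CLV3 peptide gene itself, which HAM activity restricts in the meristem, had 9 and 7 counts in se-1 and 0 and 3 in wild type, too few to be tested (ratio of counts 5.14, exact 95% interval 1.47 to 27.5). SPL9, whose protein is reported to bind HAM proteins, had 11 and 10 counts against 4 and 3. WOX4 had 4 counts against 1, and SPL15 had none.

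The protochlorophyllide oxidoreductase genes of chlorophyll synthesis were included because HAM1 is known to repress PORC in seedlings. PORC was at 17.4 and 16.4 CPM in se-1 and 14.8 and 15.1 CPM in wild type and did not pass (log2 fold change 0.17, SE 0.10, adjusted p = 0.134, edgeR). PORB rose 3.94-fold, from 40.4 ± 0.315 to 159 ± 5.67 CPM (adjusted p = 3.9e-13). PORA had 7 counts in se-1 and 13 in wild type and was not tested.

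**Figure D5:**
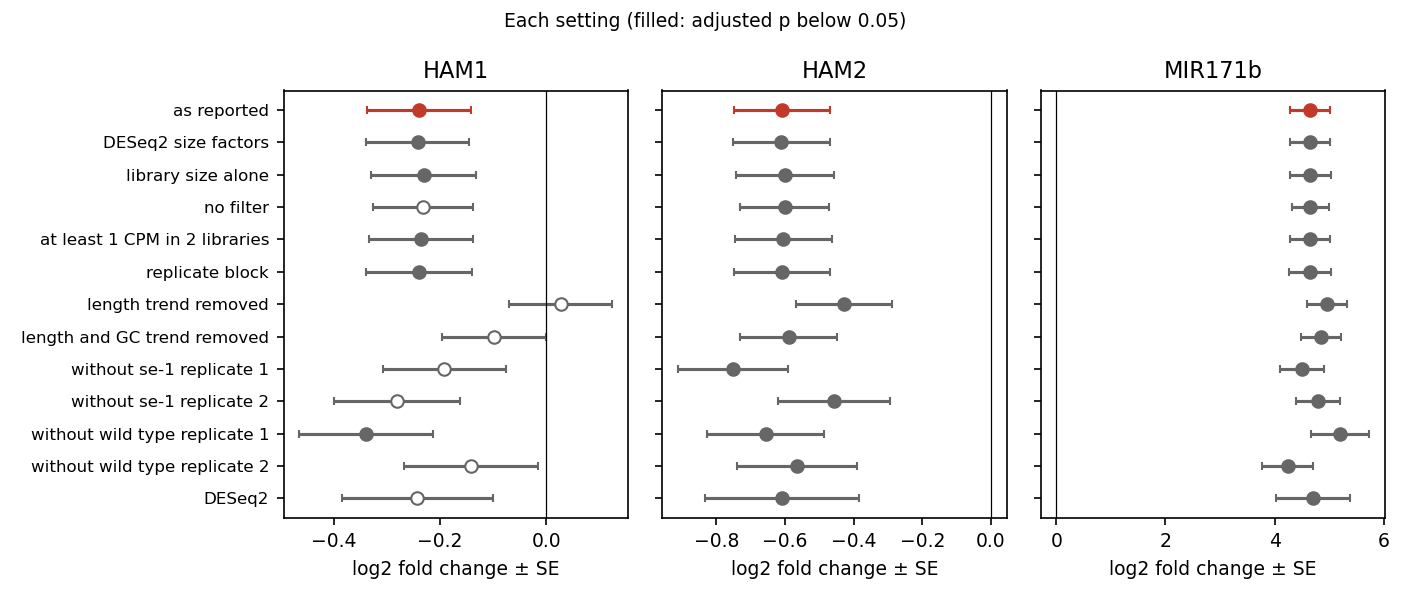
Log2 fold change of se-1 over wild type ± SE (horizontal axes) of HAM1, HAM2 and MIR171b as reported (red) and under each of 12 alternative settings (grey, rows); filled points have an adjusted p below 0.05. HAM1 runs from -0.34 to 0.03 with open points in 7 settings, HAM2 stays between -0.75 and -0.43 and MIR171b between 4.24 and 5.21, both filled throughout.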

How the data were processed

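The authors deposited raw counts of reads per gene for each library. Tools listed in the submitters' processing notes are featureCounts, HISAT2 2.0.5, FastQC 0.11.5 and Cufflinks 2.2.1, with TAIR10 as build and no role for each. For strand setting and annotation release, the sources used here give nothing. Per the labels' protocols, RNA from the RNAqueous-Micro kit was amplified with the MessageAmp aRNA kit before TruSeq library preparation. Priming at the poly(A) tail can under-represent distant parts of long messages.

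The test was that of edgeR 4.0.16, run in R 4.3.3 (filterByExpr, TMM, quasi-likelihood F-test of genotype, two-sided, Benjamini-Hochberg over 18714 genes, threshold 0.05). The SE is the absolute log2 fold change over the square root of F. The length trend is a natural spline (5 degrees of freedom) of log2 fold change on log transcript length of coding genes, entered as an offset. DESeq2 1.42.0 was an alternative. Count ratios have exact conditional binomial intervals. The counts carry no molecular identifiers, so intervals and the limit of 3 counts cover counting error only. Between replicates, chi-square over degrees of freedom was 5.87 in se-1 and 4.10 in wild type, above sampling noise. Lengths, sequences and coordinates are from RefSeq TAIR10.1. The tables hold no coordinates. Of the row identifiers 27576 matched that annotation. The hairpin was folded with ViennaRNA 2.7.2.

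The members and gene lists were chosen with earlier results of these data known. The genes named are the members, HAM4, the tested miR171 family, POR and partner genes, the 4 GRAS genes with the smallest adjusted p in each direction, and the 3 genes closest to each member in log2 fold change. Other genes were named after their values were seen.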

Additional observations from a re-analysis of the deposited data

How the results depend on the processing

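HAM2 and MIR171b kept their direction and their call in all 12 alternatives. For HAM1 the log2 fold change was -0.23 with no filter (adjusted p = 0.0816), -0.24 with DESeq2 (0.126), -0.10 with the length and GC trend removed (0.387) and, reversed, 0.027 with the length trend removed (0.823). Leaving out single libraries gave -0.34 to -0.14, and of these fits the one without wild type replicate 1 passed. The adjusted p of HAM1 ranged from 0.0127 to 0.823. In the list of HAM partners and meristem or epidermal regulators, 7 genes were called. This number went to 3 with the length trend removed and to 4 with the length and GC trend removed. The cause was not tested. CRN, which passed in none of these fits, turned from -0.04 to 0.11 and 0.19. The counts of called genes over the transcriptome, the GRAS list and the MIR list stayed within 1.5 times in total. Higher and lower MIR genes, 29 and 2, were 28 and 6 with no filter, 28 and 5 without se-1 replicate 1, 24 and 5 without se-1 replicate 2 and 24 and 0 at 1 CPM or more in 2 libraries, where fewer genes are tested.

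Labels give both genotypes replicates 1 and 2. Deviations of same-numbered libraries had a correlation of 0.03 across genes, so the numbers were not taken as pairs. With the replicate block HAM1 was at -0.24, HAM2 at -0.61 and MIR171b at 4.66 on the log2 scale, and 13683 genes were called in place of 13523. The lower bound for HAM3 was 1.46-fold without se-1 replicate 1, 1.31-fold without se-1 replicate 2 and 3.47-fold without wild type replicate 2, and without wild type replicate 1 the 3 reads left are no more than the limit itself, so no bound is given. With 1 library in an arm, that library is assumed to vary like the others. Depth limits HAM3, HAM4, CLV3 and the wild-type level of MIR171b. The HAM shares kept their signs in all 6 alternatives each.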
